A study of Rattus norvegicus with 9 samples.

Results

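Genes of the proteasome were followed in the skin of 9 Sprague Dawley rats. They were chosen by gene symbol: all symbols of the deposited table that start with Psma, Psmb, Psmc, Psmd, Psme or Psmf and a number were taken, except Psmb8, Psmb9 and Psmb10. This gave 41 symbols and 55 probe sets, which stand for 40 of the 19101 named genes, since Psma3l is now a synonym of Psma3. By role they are 7 genes of the 20S alpha ring, 8 of the 20S beta ring, 9 of the 19S base, 7 of the 19S lid, 3 chaperones of 19S assembly, 4 activators, the inhibitor Psmf1 and Psmc3ip, which carries a proteasome symbol but is known as a partner of meiotic recombination proteins and not as a subunit. The CGN group was 4 rats given carrageenan (CGN), a seaweed polysaccharide that provokes acute inflammation and pain, at 30 mg per kg body weight. Their paw swelling and pressure pain were tested at 3 hours and their skin was taken at 4 hours, per the labels' protocols. The control group was 5 rats without CGN, whose skin is labelled non-treated. Neither the place of injection, the part of the skin, the vehicle nor the age or sex of the rats is given in the labels used here, so the effect of CGN cannot be told apart from that of injection and handling.

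The proteasome is the main protease of the cytosol and nucleus and degrades proteins tagged with ubiquitin. Its barrel, the 20S core, is a stack of alpha and beta rings, and the beta subunits Psmb5, Psmb6 and Psmb7 carry the peptide-cutting sites inside. A 19S cap binds the ubiquitin chain with its base and lid, removes it, and threads the unfolded protein into the core with a ring of ATPases. Other activators can take the place of the cap: PA28 alpha-beta (Psme1 and Psme2) is linked to antigen presentation and induced by interferon gamma, PA28 gamma (Psme3) works in the nucleus without ubiquitin, and PA200 (Psme4) is a large nuclear activator. Under interferon the cutting subunits are replaced by Psmb9, Psmb10 and Psmb8, which form the immunoproteasome in leukocytes and inflamed tissue.

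Of the 40 genes, 37 did not pass the test 4 hours after CGN. In limma, a linear model over all genes, 1 of them rose (Psme3) and 2 fell (Psmd5 and Psmc5) at an adjusted p under 0.05, which is 7.5% of them, against 22.2% of all 19101 genes (8.72% higher, 13.5% lower). At an unadjusted p under 0.05, 2 were higher and 4 lower, against 33% of all genes in either direction. A plain test without moderation of the variance called 1 higher and 3 lower, against 16.6% of all genes (7.07% higher, 9.52% lower). Their median log2 difference, CGN minus control, was -0.04, beside -0.01 for all genes. The 95% interval of the difference lay between -0.5 and 0.5 on the log2 scale for 33 of the 40, or 82.5%, against 58.3% of all genes. Within groups the genes varied little, with a median SD of 0.14 on the log2 scale against 0.18 over all genes. By mean log2 level, 38 of the 40 lay above the median of all genes. No comparison was made with genes of like level. In skin measured in bulk, fewer cells of a type and less RNA per cell cannot be told apart.

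**Figure D1:**
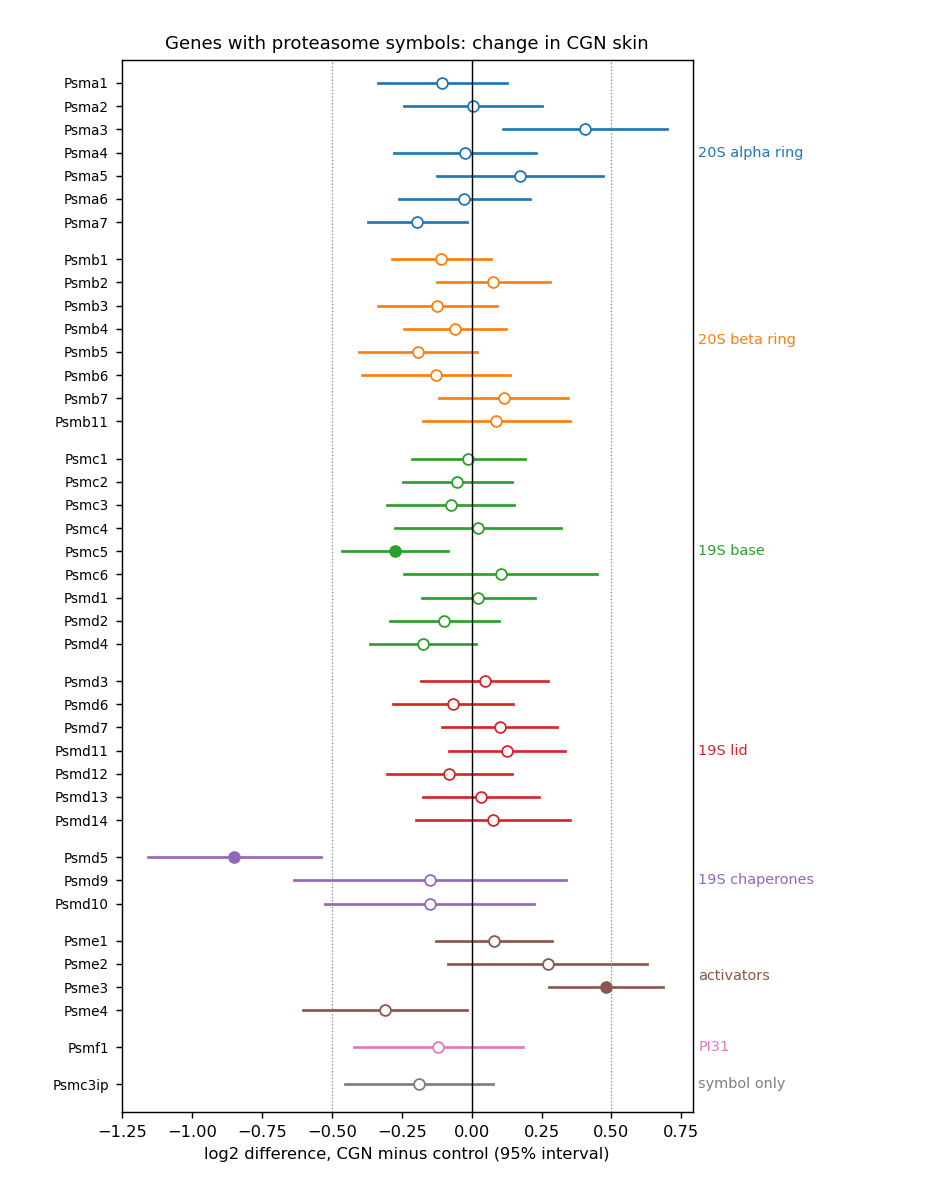
Log2 difference of intensity, CGN minus control, for the 40 genes with proteasome symbols, grouped by role. Points are limma estimates from 4 CGN and 5 control samples, lines are 95% intervals, filled points passed the test, and dotted lines mark -0.5 and 0.5. The 20S and 19S subunits crowd around 0, while Psme3 lies at 0.48 and Psmd5 at -0.85.

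Transcripts that mark other tissue and cells differed in level between the groups, and amounts of cells were not measured. Of 19 measured skeletal muscle markers (20 listed), 16 fell and 0 rose. Their mean log2 level lay between 5.24 and 7.51 in CGN samples, against 7.98 to 10.81 in controls. The difference was -3.06 (2-sided exact permutation p = 0.0159). The list was chosen with earlier results of these data known, so this p is no independent support. The summed intensity of the muscle markers ran from 1107 to 8162 in CGN samples, against 13940 to 75505 in controls. Of 12 neutrophil markers 10 rose, of 12 macrophage markers 5 rose and of 13 lymphocyte markers 6 rose, with none lower. Summed intensities of neutrophil markers were 6446 to 18709 in CGN samples, against 2125 to 2890 in controls. For macrophage markers they were 21751 to 29121, against 6207 to 10175. These sums rest mostly on few genes. In CGN replicate 1, S100a8 and S100a9 gave 5823 and 4195 of the neutrophil sum of 10773. Lyz2 gave 16683 of the macrophage sum of 21751 in that sample, and 3704 of 6207 in control replicate 2. The mean log2 level of neutrophil markers was at least 6.55 in CGN samples and at most 5.46 in controls. For macrophage markers it was at least 8.07 and at most 7.95, so that the groups nearly touch. Lymphocyte markers summed to 439.6 to 620.3 in CGN samples and 341.9 to 375.6 in controls. For markers of skin (keratins, junction proteins, collagens; 12 measured of 14 listed) the sums were alike, at 154313 to 160571 in CGN samples and 151303 to 162364 in controls, and only Pdgfra rose. The part of muscle or leukocyte content in the differences below was not tested beyond a fit with the muscle level as a covariate.

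In the 20S core none of 15 genes passed in either direction, against 22.2% of all genes, and the median log2 difference was -0.03. At an unadjusted p under 0.05, 1 gene was higher and 1 lower, against 33% of all genes in either direction. A plain test without moderation called 0 higher and 1 lower, against 16.6%. The intervals of 14 of the 15 lay between -0.5 and 0.5. Across samples, the median of the 15 genes relative to the control mean was -0.10, 0.00, 0.10 and -0.13 in CGN replicates 1 to 4, against -0.09, 0.08, -0.05, 0.02 and 0.02 in control replicates 1 to 5. The groups overlap fully, and the largest departures in either direction are CGN replicates.

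Psma3, an alpha-ring subunit, came nearest to a rise among the core genes. Its intensity was 649, 482, 581 and 546 in CGN replicates 1 to 4, against 347, 416, 388, 515 and 477 in control replicates 1 to 5. Every CGN sample but replicate 2 lies above all controls, and CGN replicate 2 lies below only control replicate 4. The log2 difference was 0.40 ± 0.13 (SE) with an adjusted p of 0.0511. Psma3 passed without CGN replicate 2 (0.48, adjusted p = 0.0442) or control replicate 4 (0.47, adjusted p = 0.0281), after quantile normalization (adjusted p = 0.0270) or median centring (adjusted p = 0.0305), and without the dimmest genes (adjusted p = 0.0443). With the muscle covariate its difference was 0.20 ± 0.23 (adjusted p = 0.754). The mean of its probe sets differed by 0.24 (adjusted p = 0.210). A dim Psma3 probe set deposited as Psma3l differed by 0.37 and another by -0.07, neither past the test, and RefSeq names 2 Psma3 pseudogenes that its probes could also bind.

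Psma7, another alpha-ring subunit, was lower without passing. Its values were 4895, 4776, 5148 and 4591 in CGN replicates 1 to 4, and 5326, 6070, 5510, 5483 and 5380 in control replicates 1 to 5. All CGN samples lie below all controls, as they do for 10.6% of all genes. The log2 difference was -0.19 ± 0.08 (adjusted p = 0.117), and Psma7 passed after quantile normalization (-0.24, adjusted p = 0.0454) and in the plain test (adjusted p = 0.0379). Psma5 measured 1618, 1852, 2446 and 1643 in CGN replicates and 1388, 1733, 1632, 1768 and 1780 in controls, with CGN replicates 2 and 3 above all controls and replicates 1 and 4 among them (0.17 ± 0.13, adjusted p = 0.439). At the flat end, Psma2 had 1745, 1956, 2020 and 1690 in CGN replicates, against 1511, 2027, 1774, 2090 and 1871 in controls, a difference of 0.00 with a 95% interval from -0.24 to 0.25. The other alpha genes, Psma1, Psma4 and Psma6, differed by -0.10 to -0.02.

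In the beta ring the log2 differences of 8 genes ran from -0.19 to 0.12. The chymotrypsin-like subunit Psmb5 gave 2850, 3174, 3272 and 2911 in CGN replicates 1 to 4, against 4056, 3460, 3170, 3343 and 3429 in control replicates 1 to 5. Control replicate 3 lies within the CGN range, the other controls lie above every CGN sample, and the difference of -0.19 ± 0.10 did not pass (adjusted p = 0.193). Psmb6, the caspase-like subunit, differed by -0.13 (95% interval -0.39 to 0.14) and Psmb7, the trypsin-like subunit, by 0.12 (-0.12 to 0.35). The structural subunit Psmb1 had 983, 1030, 1082 and 985 in CGN replicates and 1082, 1147, 1013, 1113 and 1146 in controls (-0.11 ± 0.08, adjusted p = 0.406). Psmb3 had 1229, 1361, 1560 and 1315 in CGN replicates and 1391, 1474, 1649, 1511 and 1398 in controls (-0.12 ± 0.10, adjusted p = 0.439). Both pairs of groups overlap, and the Psmb3 probe set is of a kind that can bind related transcripts, with 7 pseudogenes named in RefSeq. For Psmb4 the values were 2272, 2455, 2533 and 2290 in CGN replicates and 2651, 2638, 2337, 2401 and 2427 in controls, a difference of -0.06 (95% interval -0.24 to 0.12). Psmb2 differed by 0.08 (adjusted p = 0.631). Psmb11, known for its restriction to thymic epithelium, was dim at 9.29 to 11.02 in CGN samples and 7.56 to 11.55 in controls, and no detection calls show whether this lies above background.

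The 19S base and lid were as flat as the core. Of 16 genes 0 rose and 1 fell, or 6.25% against 22.2% of all genes. The median log2 difference was 0.01, with 8 genes above and 8 below 0, and all 16 intervals lay between -0.5 and 0.5. At an unadjusted p under 0.05, 0 were higher and 1 lower, against 33% of all genes in either direction. The plain test called 0 higher and 1 lower, against 16.6%. Sample medians were -0.08, 0.02, 0.05 and -0.10 in CGN replicates 1 to 4, against -0.13, 0.05, -0.11, 0.13 and 0.04 in control replicates 1 to 5, so that the controls span a wider range than the CGN samples.

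**Figure D2:**
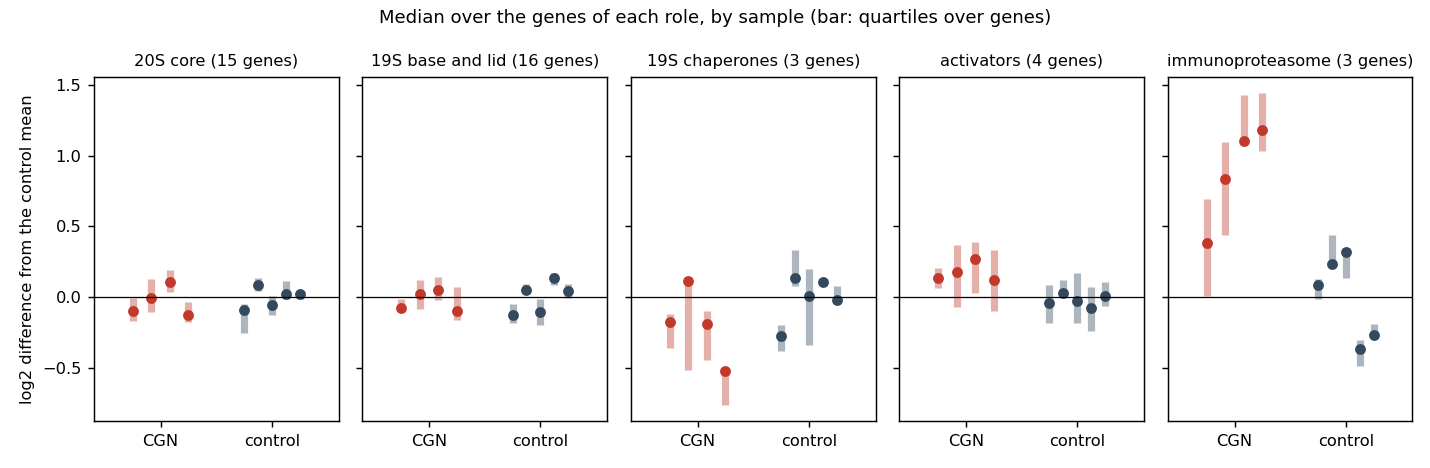
Median log2 difference from each gene's control mean, over the genes of each role, in each of 4 CGN samples (red) and 5 control samples (dark blue), with bars for the quartiles over genes. The 20S core and the 19S base and lid depart from 0 by at most 0.13 in any sample, the activators lie between 0.12 and 0.27 in CGN samples, and the immunoproteasome genes lie between 0.38 and 1.18 in CGN samples.

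Psmc5, an ATPase of the base, was the base or lid gene that fell. It measured 3113, 3010, 3116 and 2775 in CGN replicates 1 to 4, against 3731, 3710, 3226, 3883 and 3620 in control replicates 1 to 5. The groups do not overlap, though control replicate 3 lies close to the CGN samples. The difference of -0.27 ± 0.09, a fold of 0.827, passed narrowly (adjusted p = 0.0430). The call was lost on leaving out any of the 9 samples other than control replicate 3 (adjusted p = 0.0516 to 0.124 in those 8 fits), after median centring (adjusted p = 0.131), over all probe sets (adjusted p = 0.0558) and with the muscle covariate (-0.37 ± 0.15, adjusted p = 0.275). Other ATPases of the ring, Psmc1, Psmc2, Psmc3, Psmc4 and Psmc6, differed by -0.07 to 0.10, none past the test.

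The scaffold and receptor subunits of the base did not pass. Psmd4, a ubiquitin receptor, had 1223, 1388, 1474 and 1306 in CGN replicates, against 1437, 1587, 1582, 1526 and 1461 in controls (-0.17 ± 0.09, adjusted p = 0.188). CGN replicate 3 alone reaches into the control range. The scaffold Psmd2 had 2134, 2248, 2376 and 2166 in CGN replicates, against 2457, 2449, 2067, 2526 and 2461 in controls (-0.10 ± 0.09, adjusted p = 0.510). Here control replicate 3 lies below every other sample, and the other 4 controls lie above all CGN samples. The ATPase Psmc1 shows what the flat members look like, with 1643, 1886, 1812 and 1572 in CGN replicates, 1622, 1844, 1608, 1841 and 1789 in controls and a 95% interval of -0.21 to 0.19. The largest scaffold, Psmd1, differed by 0.02 (-0.18 to 0.23).

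In the lid the 7 measured genes differed by -0.08 to 0.13 and none passed, against 22.2% of all genes. Psmd11, a lid subunit, had 985, 1108, 1131 and 1021 in CGN replicates, against 836, 985, 1002, 1066 and 983 in controls (0.13 ± 0.09, adjusted p = 0.414). Psmd7, which pairs with the deubiquitinase Psmd14, had 1372, 1506, 1478 and 1532 in CGN replicates, against 1252, 1571, 1274, 1340 and 1445 in controls (0.10 ± 0.09, adjusted p = 0.523). Both overlap between the groups, with CGN samples mostly in the upper part. Psmd12 had 1462, 1352, 1526 and 1280 in CGN replicates, against 1316, 1434, 1396, 1688 and 1604 in controls (-0.08 ± 0.10, adjusted p = 0.661). Psmd13 had 1080, 1251, 1152 and 1208 in CGN replicates, against 1137, 1181, 999, 1277 and 1146 in controls, a difference of 0.03 (95% interval -0.17 to 0.24). Psmd14, which cuts the ubiquitin chain off the substrate, differed by 0.08 (95% interval -0.20 to 0.35). Psmd3, a scaffold of the lid, differed by 0.05 and Psmd6 by -0.07, and Psmd8 was not analysed here.

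Among the chaperones that help to build the 19S base, Psmd5 showed the largest difference of all 40 genes. Its intensity was 169, 110, 151 and 122 in CGN replicates 1 to 4, against 202, 270, 247, 274 and 241 in control replicates 1 to 5. All CGN samples lie below all controls, and its level in CGN skin was 0.555 of that in control skin (log2 difference -0.85 ± 0.14, adjusted p = 0.00171). The call held on leaving out each sample in turn (adjusted p = 0.000521 to 0.00797), and with the muscle covariate the difference was of like size with a larger error (-0.90 ± 0.26, adjusted p = 0.114). A dim Psmd5 probe set, at mean intensities of 15.1 in CGN and 14.4 in control skin, differed by 0.07 (adjusted p = 0.721 over all 43685 probe sets). The mean of both probe sets differed by -0.39 (adjusted p = 0.0157 in the fit of averaged probe sets). Psmd10 (gankyrin) had 38.6, 43.7, 35.2 and 29.3 in CGN replicates, against 28.7, 40.9, 52.5, 43.2 and 39.7 in controls (-0.15 ± 0.17, adjusted p = 0.617). Psmd9 had 69.5, 85.1, 78.0 and 54.4 in CGN replicates, against 72.3, 113, 48.5, 84.4 and 88.9 in controls (-0.15 ± 0.22, adjusted p = 0.715). Both overlap widely, and their intervals, from -0.52 to 0.22 for Psmd10 and from -0.64 to 0.34 for Psmd9, are wider than that of any core subunit.

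The activators did not move as 1 group. Of 4 genes 1 rose and 0 fell, a share of 25% that is near the 22.2% of all genes. Their median log2 difference was 0.18. Psme3 (PA28 gamma) measured 1119, 1284, 1372 and 1330 in CGN replicates 1 to 4, against 965, 899, 817, 933 and 954 in control replicates 1 to 5. The groups do not overlap, with CGN above, which holds for 8.44% of all genes. Psme3 was 1.40-fold higher in CGN skin (log2 difference 0.48 ± 0.09, adjusted p = 0.00403), and its dimmer probe set rose too (0.56 ± 0.12, adjusted p = 0.00737 over all 43685 probe sets). On leaving out each sample the adjusted p stayed between 0.00176 and 0.0156, and with the muscle covariate the difference was 0.36 ± 0.16 (adjusted p = 0.324). RefSeq names 4 pseudogenes of Psme3, whose transcripts the probes could also bind.

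Psme4 (PA200) pointed the other way without passing. It measured 529, 424, 375 and 428 in CGN replicates 1 to 4, against 482, 547, 451, 615 and 630 in control replicates 1 to 5. CGN replicates 2 to 4 lie below all controls, and CGN replicate 1 lies within them. The difference was -0.31 ± 0.13 (adjusted p = 0.129), and it passed without CGN replicate 1 (-0.40, adjusted p = 0.0448) and with array weights (adjusted p = 0.0370). Of its 2 other probe sets, 1 fell (-0.45 ± 0.13, adjusted p = 0.0410) and 1 did not pass (-0.27 ± 0.14, adjusted p = 0.276). These 2 values come from the fit over all 43685 probe sets, in which the chosen probe set had an adjusted p of 0.166.

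The interferon-linked pair Psme1 and Psme2 did not pass either. Psme1 had 2218, 2112, 2412 and 2051 in CGN replicates, against 2234, 2133, 2225, 1823 and 2000 in controls (0.08 ± 0.09, 95% interval -0.13 to 0.29). Psme2 had 607, 674, 672 and 642 in CGN replicates, against 453, 688, 693, 408 and 507 in controls (0.27 ± 0.16, adjusted p = 0.286). The CGN samples of Psme2 lie close together, inside a control range that falls into higher (replicates 2 and 3) and lower values. The inhibitor-like regulator Psmf1 (PI31) had 71.7, 76.8, 96.9 and 62.1 in CGN replicates, against 70.4, 97.0, 86.7, 82.3 and 77.9 in controls (-0.12 ± 0.14, adjusted p = 0.625). Psmc3ip differed by -0.19 (adjusted p = 0.324).

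Changes of the activators were set against each other as log2 ratios within each sample, 6 pairs in all, with exact permutation tests chosen after the values were seen. The ratio of Psme3 to Psme4 averaged 1.55 ± 0.33 in CGN samples and 0.76 ± 0.17 in controls (SD, n = 4 and 5), higher by 0.79 in CGN skin (2-sided exact permutation p = 0.00794, adjusted over the 6 pairs 0.0476). That p is the smallest that 126 splits allow. The ratio of Psme1 to Psme3 averaged 0.79 ± 0.15 in CGN samples and 1.19 ± 0.18 in controls, a difference of -0.40 that did not pass after adjustment (exact permutation p = 0.0238, adjusted 0.0714). The other 4 pairs had adjusted values of 0.155 to 0.421. The ratio of Psme3 to Psme4 was thus higher in CGN skin, but both genes' differences were known when the test was chosen. Psme4 by itself did not pass. The level of a ratio depends on the probes and is not read.

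**Figure D3:**
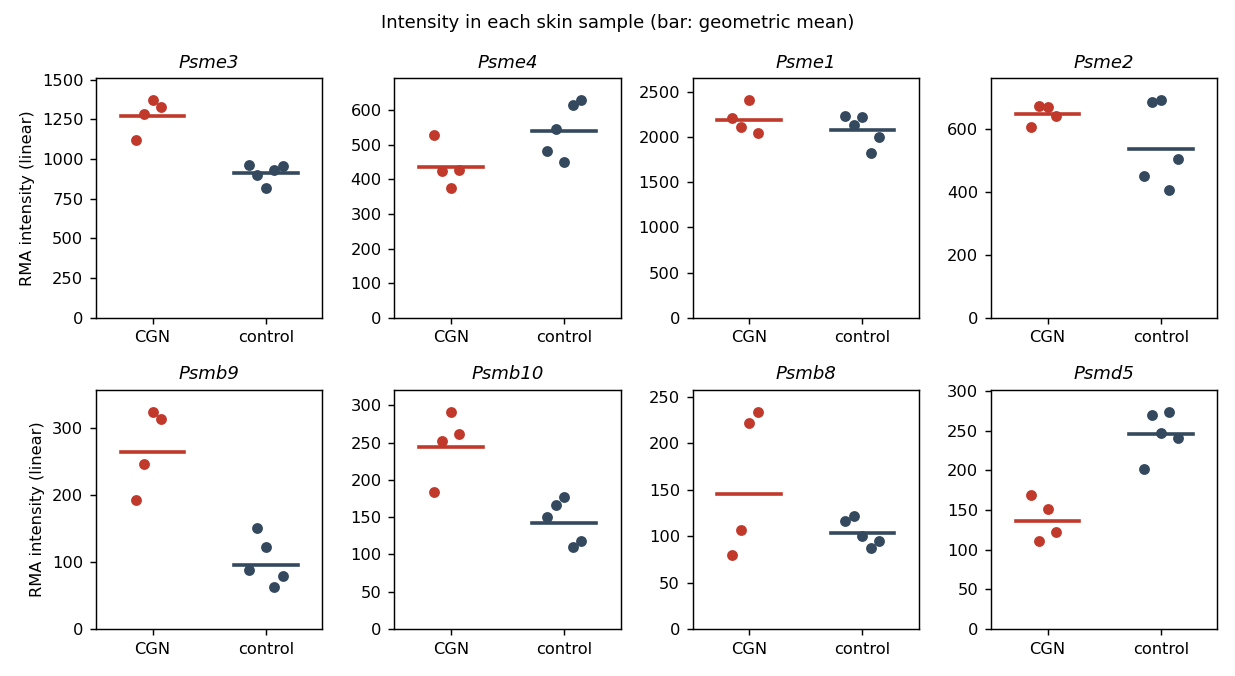
RMA intensity on a linear scale of the 4 activator genes, the 3 immunoproteasome genes and Psmd5 in 4 CGN samples (red) and 5 control samples (dark blue), with bars at the geometric means. Psme3, Psmb9 and Psmb10 lie higher in every CGN sample than in any control, and Psmd5 lies lower in every CGN sample.

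With the muscle level as a covariate, none of the 40 genes passed, 36 had a difference below 0, and the median was -0.23, beside -0.03 for all genes. The median SE of the 40 genes was 0.168 with the covariate, against 0.103 without it. Under this covariate 2.6% of all genes passed, 2.27% higher and 0.335% lower. The median of the core was -0.23 and that of the base and lid -0.25, with 14 of 15 and 16 of 16 genes below 0. Of all 19101 genes, 10457 were below 0 in this fit. The sign and size of these small differences thus depend on whether the muscle marker level is in the model. The list of muscle markers was chosen with earlier results of these data known.

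The symbol rule leaves out the immunoproteasome subunits. Of these 3 genes 2 rose and 0 fell, or 66.7% against 22.2% of all genes, with a median log2 difference of 0.79. Psmb9, which replaces Psmb6, measured 193, 246, 324 and 313 in CGN replicates 1 to 4, against 88.1, 150, 122, 62.8 and 78.9 in control replicates 1 to 5. Psmb9 was 2.75-fold higher (1.46 ± 0.25, adjusted p = 0.00206) with no overlap between the groups. Psmb10, which replaces Psmb7, measured 184, 253, 292 and 262 in CGN replicates, against 150, 166, 177, 110 and 118 in controls. It was 1.73-fold higher (0.79 ± 0.18, adjusted p = 0.00843), again with all CGN samples above all controls. Psmb8, which replaces Psmb5, measured 80.1, 106, 222 and 234 in CGN replicates, against 117, 121, 99.9, 87.4 and 95.1 in controls. CGN replicates 3 and 4 lie far above the controls, replicate 2 lies among them and replicate 1 below them all. The difference of 0.49 ± 0.29 did not pass (adjusted p = 0.291). It passed without CGN replicate 1 (0.78, adjusted p = 0.0355) and was 0.29 without replicate 3 and 0.26 without replicate 4. With the muscle covariate Psmb9 was at 1.73 ± 0.44 and Psmb10 at 0.95 ± 0.31 (adjusted p = 0.0786 and 0.170). These genes are known to be abundant in leukocytes, and some leukocyte markers rose in the same samples, as given above. The part of leukocyte content in these differences was not tested.

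Within each sample, the log2 ratio of Psmb9 to Psmb6 averaged -0.33 ± 0.34 in CGN samples and -1.92 ± 0.40 in controls (SD, n = 4 and 5), higher by 1.59 in CGN skin (2-sided exact permutation p = 0.00794, adjusted over 3 pairs 0.0238). The ratio of Psmb10 to Psmb7 averaged -2.36 ± 0.26 in CGN samples and -3.03 ± 0.34 in controls, a difference of 0.67 (exact permutation p = 0.0238, adjusted 0.0357), with CGN replicate 1 below control replicate 3. For Psmb8 to Psmb5 the averages were -4.39 ± 0.75 in CGN samples and -5.07 ± 0.17 in controls (exact permutation p = 0.0714, also adjusted 0.0714). Thus 2 of the 3 transcript ratios were higher in CGN skin. As Psmb6 and Psmb7 themselves differed by only -0.13 and 0.12, these ratios mainly restate the rises of Psmb9 and Psmb10. Exchange of subunits within proteasomes was not tested, and protein was not measured. The tests of the ratios were chosen after the values of the genes were known.

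**Figure D4:**
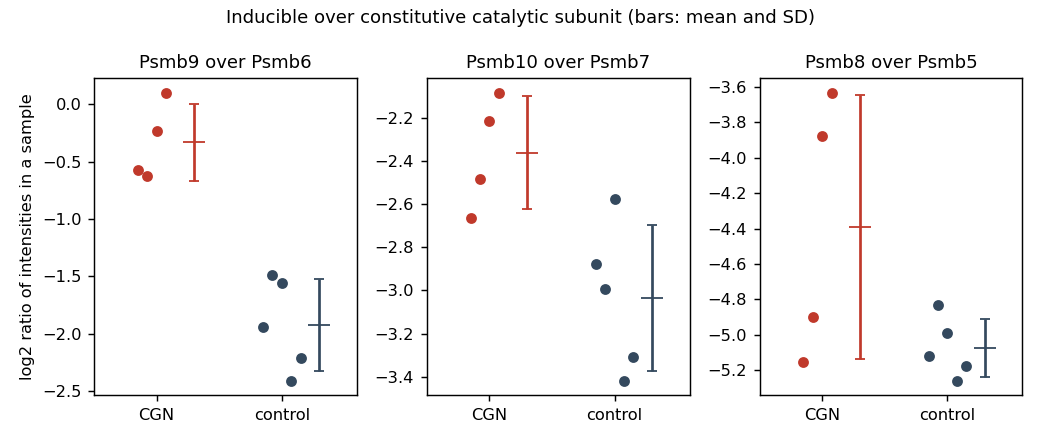
Log2 ratio of the intensity of an inducible catalytic subunit to that of the constitutive subunit it replaces, in 4 CGN samples (red) and 5 controls (dark blue), with mean and SD beside the points. The axes differ between panels and do not start at 0. Every CGN sample lies above every control for Psmb9 over Psmb6, while CGN replicates 1 and 2 of Psmb8 over Psmb5 lie among the controls.

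Promoters of these pairs are printed because their transcripts parted, and those of Psme3 and of Zfand2a (described below) because they rose. Each window runs from 250 bases before to 50 bases after the gene's start in RefSeq, build GRCr8, written 5′ to 3′ in the direction of the gene. Capitals mark every match, on either strand, to 5 motifs: TGACNNNGC, the core of the antioxidant response element; CCAAT; GAANNTTC, the core of a heat shock element; GAAA and GAAA with NN between them, a repeat found in interferon response elements; and GGGA and CC with NNNN between them, a loose kappa B form. Matches that touch or overlap form 1 run of capitals, which happens only in Zfand2a, where 1 pair of matches shares bases.
Psme3 (chr10:86757683-86757982, plus strand): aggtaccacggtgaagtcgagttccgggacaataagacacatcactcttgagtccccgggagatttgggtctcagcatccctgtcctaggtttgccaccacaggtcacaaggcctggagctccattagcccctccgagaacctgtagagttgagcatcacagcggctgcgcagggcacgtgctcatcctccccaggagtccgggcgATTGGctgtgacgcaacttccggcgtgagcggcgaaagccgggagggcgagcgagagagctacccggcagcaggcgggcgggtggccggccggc
Psmb9 (chr20:4668750-4669049, plus strand): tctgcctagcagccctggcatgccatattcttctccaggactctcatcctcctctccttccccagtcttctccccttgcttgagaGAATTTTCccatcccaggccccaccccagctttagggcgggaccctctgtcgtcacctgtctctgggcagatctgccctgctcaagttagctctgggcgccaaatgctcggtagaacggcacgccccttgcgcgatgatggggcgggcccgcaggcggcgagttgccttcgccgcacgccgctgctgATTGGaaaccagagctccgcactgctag
Psmb6 (chr10:55737638-55737937, plus strand): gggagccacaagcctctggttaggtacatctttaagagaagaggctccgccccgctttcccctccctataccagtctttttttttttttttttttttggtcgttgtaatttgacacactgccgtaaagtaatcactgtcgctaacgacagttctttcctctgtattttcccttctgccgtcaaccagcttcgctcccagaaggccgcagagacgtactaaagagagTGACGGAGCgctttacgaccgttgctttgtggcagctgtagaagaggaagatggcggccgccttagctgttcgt
Psmb10 (chr19:50743243-50743542, minus strand): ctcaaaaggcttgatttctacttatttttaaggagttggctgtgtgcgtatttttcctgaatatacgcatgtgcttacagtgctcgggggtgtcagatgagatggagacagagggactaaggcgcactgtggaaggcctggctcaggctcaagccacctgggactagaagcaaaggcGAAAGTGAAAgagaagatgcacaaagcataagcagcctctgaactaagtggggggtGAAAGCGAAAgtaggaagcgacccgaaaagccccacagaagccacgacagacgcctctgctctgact
Psmb7 (chr3:42827421-42827720, minus strand): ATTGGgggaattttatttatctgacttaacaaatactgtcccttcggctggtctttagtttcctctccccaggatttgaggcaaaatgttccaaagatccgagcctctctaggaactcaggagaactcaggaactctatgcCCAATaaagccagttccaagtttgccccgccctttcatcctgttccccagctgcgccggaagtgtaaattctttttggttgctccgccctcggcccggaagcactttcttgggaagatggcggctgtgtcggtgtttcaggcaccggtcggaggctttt
Zfand2a (chr12:20275200-20275499, plus strand): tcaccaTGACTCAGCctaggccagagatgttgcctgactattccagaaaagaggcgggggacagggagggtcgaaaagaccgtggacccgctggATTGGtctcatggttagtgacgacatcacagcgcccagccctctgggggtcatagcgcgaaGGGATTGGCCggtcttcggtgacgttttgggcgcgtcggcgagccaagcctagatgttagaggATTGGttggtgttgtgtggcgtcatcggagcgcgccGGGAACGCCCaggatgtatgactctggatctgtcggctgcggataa

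Of the 40 genes, 35 had a promoter in the table. TGACNNNGC stood in 8 of these 35, or 22.9%, against 12.1% of all 33469 promoters, and CCAAT in 19, or 54.3%, against 37.5%. The interferon repeat stood in 4 of the 35, or 11.4%, against 3.92% of all. It also stood in 2 of the 3 immunoproteasome promoters, those of Psmb10, which rose, and Psmb8, which did not pass. Psmb9, which rose, does not hold it. Psmb10 holds it at 2 places and Psmb7, the subunit it replaces, at none, whereas Psmb9 holds CCAAT and GAANNTTC once each and Psmb6 holds TGACNNNGC once. Psme3 holds 1 CCAAT. Psmd5 and Psmc5, the genes that fell, hold no match to the 5 motifs. The same holds for Psma6, Psmb4, Psmc2, Psmc4 and Psme1, none of which passed the test. GAANNTTC was in 2 of the 35 (5.71%, against 8.59% of all) and the kappa B form in 10 (28.6%, against 19.3%). These are matches of letters in a short window, not sites of binding.

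Of the other genes of the pathway, 33 of 36 listed were measured, and 6 rose and 3 fell. Besides Psmb9 and Psmb10, the rises were those of Nfe2l2, Nploc4, Zfand2a and Zfand5, and the falls included those of Ngly1 and Ubqln2. The share that passed was 27.3%, against 22.2% of all genes. With the muscle covariate 2 rose (Zfand2a and Zfand5) and 0 fell, against 2.27% higher and 0.335% lower of all genes.

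Zfand2a and Zfand5, zinc-finger proteins that bind the proteasome and are known as stress-induced aids to degradation, were among the rises. Zfand2a measured 448, 771, 519 and 769 in CGN replicates 1 to 4, against 146, 176, 188, 167 and 204 in control replicates 1 to 5. It was 3.48-fold higher (1.80 ± 0.17, adjusted p = 4.79e-05). Zfand5 measured 2474, 2561, 1856 and 2562 in CGN replicates, against 1007, 952, 1124, 1018 and 970 in controls. It was 2.31-fold higher (1.21 ± 0.11, adjusted p = 3.61e-05). In both, every CGN sample lies far above the highest control. Both also passed with the muscle covariate (1.58, adjusted p = 0.0220, and 1.38, adjusted p = 0.00378).

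Of 5 genes that control proteasome production, 1 rose and 1 fell, or 40% against 22.2% of all genes. Nfe2l2 (NRF2), the factor of the antioxidant response, measured 2480, 1851, 2132 and 2253 in CGN replicates, against 1267, 1487, 1500, 1557 and 1545 in controls (0.56 ± 0.11, adjusted p = 0.00361). The groups do not overlap. Nfe2l1 (NRF1), the factor that restores proteasome genes when degradation falls short, differed by -0.21 (95% interval -0.47 to 0.04), and the protease Ddi2, which releases it, by -0.28 (-0.63 to 0.07). Ngly1, the enzyme that strips sugars from NRF1, measured 481, 250, 296 and 312 in CGN replicates, against 411, 571, 607, 625 and 636 in controls. Its level in CGN skin was 0.576 of that in controls (-0.79 ± 0.19, adjusted p = 0.0124), with CGN replicate 1 above control replicate 1. Ngly1 did not pass in the plain test (adjusted p = 0.0514). Akirin2, which carries proteasomes into the nucleus, measured 567, 687, 564 and 507 in CGN replicates, against 416, 417, 455, 545 and 522 in controls. Its difference of 0.30 ± 0.12 did not pass (adjusted p = 0.101).

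Of 16 genes of ubiquitin and its shuttles, 3 rose, 2 fell and 11 did not pass, so that 31.25% passed, against 22.2% of all genes. Ubqln2, a shuttle that brings ubiquitinated proteins to the proteasome, fell by 0.46 (adjusted p = 0.00930), while Ubqln1 differed by 0.33 (adjusted p = 0.0780). Nploc4, a cofactor of the segregase Vcp, rose by 0.38 ± 0.10 (adjusted p = 0.0191), and Vcp itself differed by 0.06.

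No gene passed among 4 measured assembly factors or 5 measured partners of the 19S cap, in either direction, against 22.2% of all genes. At an unadjusted p under 0.05, 0 of them passed, against 33% of all genes. The plain test also called 0, against 16.6%. Psmg1 and Psmg2 form a pair that starts the alpha ring. Psmg1 had 1052, 1032, 1026 and 901 in CGN replicates, against 1036, 1160, 1110, 1009 and 973 in controls (-0.08, adjusted p = 0.632). Psmg2 had 470, 543, 556 and 455 in CGN replicates, against 541, 551, 548, 632 and 571 in controls (-0.17, adjusted p = 0.246). Pomp, which guides the beta ring, had 666, 727, 899 and 676 in CGN replicates, against 664, 789, 680, 738 and 704 in controls (0.05, 95% interval -0.19 to 0.28). The groups overlap for all 3. The cap's small subunit Sem1 had 2061, 2316, 2153 and 1839 in CGN replicates, against 2034, 2647, 1999, 2599 and 2470 in controls (-0.16, adjusted p = 0.395). The deubiquitinase Uchl5 had 424, 306, 332 and 292 in CGN replicates, against 288, 425, 313, 457 and 472 in controls (-0.19, adjusted p = 0.507). Usp14, another deubiquitinase of the cap, had 1386, 1179, 1281 and 1199 in CGN replicates, against 1085, 1210, 1154, 1336 and 1344 in controls (0.04, 95% interval -0.17 to 0.26). The groups overlap for these as well.

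**Figure D5:**
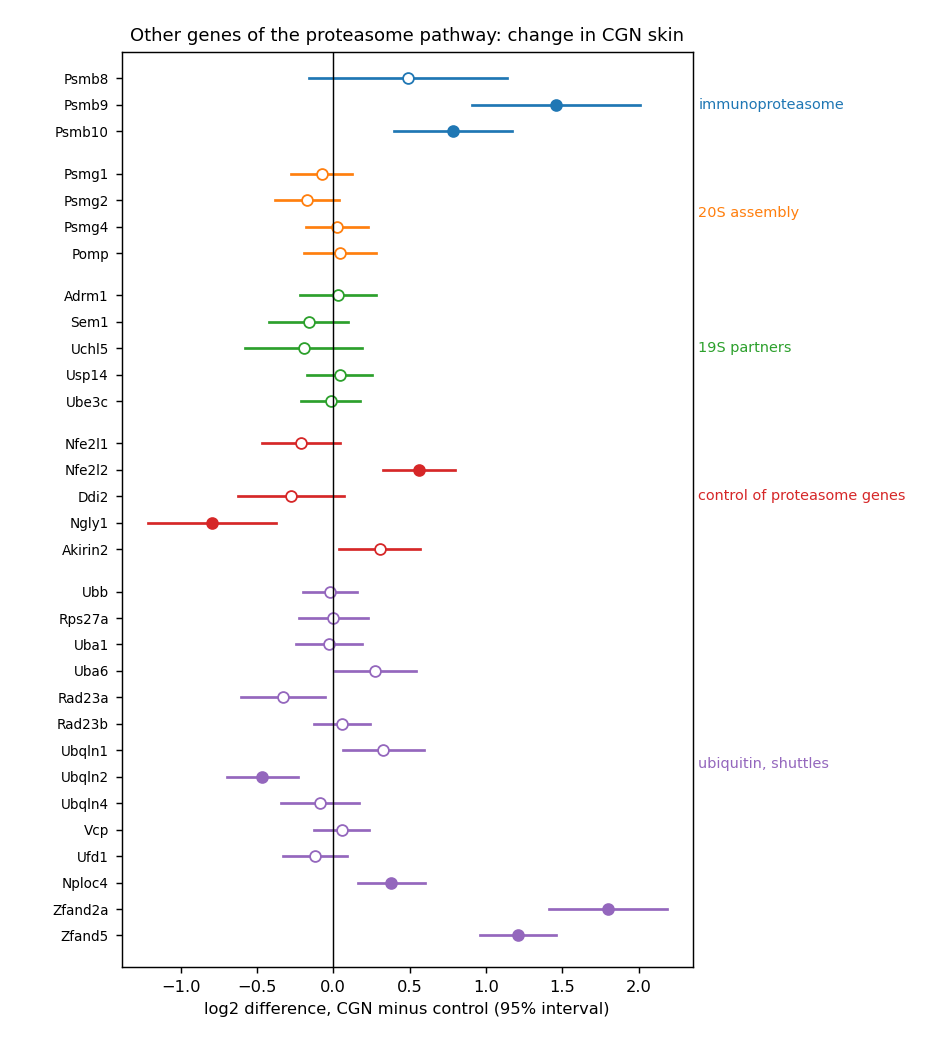
Log2 difference of intensity, CGN minus control, for the other genes of the proteasome pathway that are reported by name, by list. Points are limma estimates, lines 95% intervals, and filled points passed the test. Zfand2a at 1.80, Psmb9 at 1.46 and Zfand5 at 1.21 stand farthest to the right, and Ngly1 at -0.79 farthest to the left.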

How the data were processed

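Skin RNA of 4 CGN and 5 control rats was measured on 1-colour arrays. The authors deposited linear intensity values made with RMA, per the submitters' processing notes, which give no version. The 2 deposited tables held the same 43685 probe sets. Values came from the table whose columns are named by sample, and symbols from the other; 8 columns matched by name were identical, and the column numbered CGN 5 held the values of 1 CGN sample. Names were updated through RefSeq (GRCr8, used for names and promoters). Each of 19101 genes was represented by the probe set with the highest mean log2.

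Log2 intensities, with no pseudocount or filter, entered limma 3.58.1 (R 4.3.3; group as the only term, 2-sided), with p-values adjusted by Benjamini-Hochberg over 19101 genes, at a threshold of 0.05. Every adjusted p comes from this fit unless another is named. Differences are CGN minus control ± SE. Single ratios used exact permutation tests (Python 3.11.15). The code was tested on simulated data. The number of arrays limits the precision, and each is taken as 1 rat. No detection calls or scan batches were at hand.

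Genes, lists and markers were chosen with earlier results of these data known. Sample values are given for up to 3 genes per role with the smallest adjusted p and the 1 with the largest, all activators, the inhibitor and the immunoproteasome, and up to 3 per other list. Nploc4, Ubqln2 and further genes named by their difference alone were named after their values were seen. Alternatives were each sample left out in turn, quantile normalization, centring on array medians, a filter that drops the dimmest 30% of genes, probe sets averaged or tested one by one, limma's trend and robust settings, array weights, an unmoderated test, a replicate block, the muscle covariate and symbols as deposited. A missing promoter or gene was not analysed here, and some genes within the counts are not reported here by name.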

Additional observations from a re-analysis of the deposited data

Results flagged for a closer look

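Of 78 groups of samples checked for 39 genes, 6 held a sample whose gap to the nearest other was large for the range of its group; chance gives about 1 in 20. CGN replicate 4 was lowest for Psmg1, at 901.06 against 1026.09 to 1051.84 in the other CGN samples, and CGN replicate 3 lowest for Zfand5, at 1856.04 against 2474.29 to 2562.19. Control replicate 2 was highest for Psma7, at 6069.98 against 5325.97 to 5510.34 in the other controls. Control replicate 3 was lowest for Psmd2, at 2066.74 against 2448.87 to 2526.48. Control replicate 1 was lowest for Nfe2l2, at 1266.76 against 1487.11 to 1556.77, and for Ngly1, at 410.94 against 570.55 to 636.42.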

How the results depend on the processing

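Under 19 alternatives, 709 of 740 values of the 39 genes stayed on their side of the threshold, 21 lost a call and 10 gained one; 30 values past the test in neither setting changed sign, and no call reversed. Of the 40 genes, 1 rose and 2 fell as reported, against 2 and 1 after median centring, 2 risen after quantile normalization or without the dimmest genes, and 0 and 0 with the muscle covariate; leaving out each sample gave 1 to 2 and 1 to 2. Core genes that rose numbered 0, or 1 after median centring, quantile normalization or without the dimmest genes (0 to 1 on leaving out a sample). The count of activators that rose was 1, 0 with the muscle covariate and 1 on leaving out any sample. Pathway rises numbered 6 (2 with the muscle covariate, 5 to 8 on leaving out a sample) and falls 3 (0 with that covariate, 3 to 4). The core median was -0.03 (-0.23 with the muscle covariate, -0.09 to 0.01 on leaving out a sample), that of the base and lid 0.01 (-0.25; -0.06 to 0.03), and that of the activators 0.18 (0.24 after median centring, 0.28 with the covariate, 0.10 without control replicate 4 to 0.23 without control replicate 3). The muscle difference ran from -3.45 to -2.69 on leaving out a sample. With the covariate the errors are larger by construction, since it differs between the groups; other causes were not tested. In their deviations from the group mean, same-numbered samples correlated at -0.28 to 0.04 and differently numbered ones at -0.29 to 0.35. The labels give no pairing, and so few correlations cannot exclude one. With the replicate block, in which control replicate 5 has no partner, 1 of the 40 genes fell (Psmc5 lost its call, adjusted p = 0.174) and 0 pathway genes fell (Ngly1 had an adjusted p of 0.0976). Without detection calls, dim probe sets such as Psmb11 set no bound.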
